A study of Mus musculus with 45 samples.

Results

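The 4 genes Socs1, Socs2, Socs3 and Cish encode cytokine-induced inhibitors of JAK-STAT signalling, and they were taken by name from the 24421 genes of a table of poly(A) mRNA from mouse macrophages. All 4 were found and all 4 passed the filter on low values, which left 11380 genes for testing. The macrophages were grown from bone marrow of C57BL/6 mice in medium with L929-conditioned supernatant and used on day 7 of differentiation. They received IL-4 at 10 ng/ml, IFN-γ at 100 ng/ml, or both cytokines together at those doses, each for 2 h and for 4 h, or were left untreated. Each of the 7 groups had 3 libraries, numbered 1 to 3. The labels do not say whether the libraries of a group came from separate mice or cultures, so p-values measure only the spread between these libraries, which may be technical. A further 24 samples of the series carry short hairpin RNAs and were not analysed here.

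IL-4 and IFN-γ bind receptors whose cytoplasmic tails carry JAK kinases. IL-4 receptors mainly activate STAT6, and the IFN-γ receptor uses other STATs. Activated STATs induce SOCS genes, and the SOCS proteins then restrain the receptor that induced them or a different one. Every SOCS protein, including CIS, the product of Cish, has an SH2 domain that binds phosphotyrosine and a SOCS box that recruits elongins and a cullin to form a ubiquitin ligase. SOCS1 and SOCS3 also carry a short region that blocks JAK kinase activity directly. SOCS1 is known as the restraint on IFN-γ and IL-4 signalling in macrophages, and SOCS3 as the restraint on receptors that use gp130, such as the IL-6 receptor. CIS and SOCS2 bind phosphorylated receptor chains and are known as STAT5 targets that restrain receptors such as those for GM-CSF, erythropoietin and growth hormone.

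Promoter sequences are shown because the genes were induced by different cytokines. RefSeq promoters (GRCm38.p6) matched Socs1, Socs3 and Cish, 3 of the 4 genes, and 170 bases before to 30 bases after the annotated start are printed 5′ to 3′ on the gene's strand. Capitals mark matches to TTCNNNGAA, a palindromic STAT-type element, or to GAAANNGAAA, an interferon-regulatory-factor-type element. TTCNNNNGAA, the element with a wider spacer that STAT6 is known to prefer, was also searched. The printed windows are for Socs1 chr16:10785507-10785706 on the minus strand, for Socs3 chr11:117969337-117969536 on the minus strand and for Cish chr9:107296489-107296688 on the plus strand.
Socs1: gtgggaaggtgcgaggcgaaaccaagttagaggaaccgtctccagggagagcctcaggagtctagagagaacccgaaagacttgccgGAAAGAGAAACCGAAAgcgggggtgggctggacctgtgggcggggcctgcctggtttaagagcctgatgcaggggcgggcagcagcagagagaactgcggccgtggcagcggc
Socs3: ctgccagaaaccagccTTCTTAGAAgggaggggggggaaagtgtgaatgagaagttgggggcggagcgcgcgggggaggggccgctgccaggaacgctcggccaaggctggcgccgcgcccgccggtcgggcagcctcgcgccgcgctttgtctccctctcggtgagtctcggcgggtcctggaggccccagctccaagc
Cish: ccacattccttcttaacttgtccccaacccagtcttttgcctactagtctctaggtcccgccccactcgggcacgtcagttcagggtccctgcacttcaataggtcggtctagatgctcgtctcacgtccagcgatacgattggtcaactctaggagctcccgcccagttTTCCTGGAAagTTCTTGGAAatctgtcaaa
Both strands were searched over the whole RefSeq window of 250 bases before to 50 bases after the start. Socs1 held 2 overlapping interferon-regulatory-factor-type matches, at bases -83 to -74 and -77 to -68 from the start. Socs3 held 1 STAT-type match at bases -154 to -146, and Cish held 2, at bases 1 to 9 and 12 to 20. TTCNNNNGAA was found in none of the 3 windows. Among 27025 genes with such a window, 9.55% held TTCNNNGAA, 8.01% held TTCNNNNGAA and 3.99% held GAAANNGAAA. A match describes these letters only, and a window without one says nothing about binding of the factor.

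Deposited totals ranged from 28920801 to 80028327 reads per library. The precursor ribosomal RNA Rn45s took 0.0662% to 3.21% of reads in the treated libraries, against 0.151%, 43.2% and 15.7% in untreated replicates 1, 2 and 3. Deposited values are CPM, reads of a gene scaled to a fixed library total. They were divided by a median-ratio factor for each library, and every CPM below is on this rescaled scale. On the deposited scale the median gene was higher than in untreated libraries by log2 0.10 to 0.43 in the 6 treatments. All 10 macrophage markers were present in every group, and their summed level was 18291 to 38957 CPM across libraries. Markers of the other cell types were far lower, with a largest sum of 330 CPM for the neutrophil list. In these bulk libraries fewer expressing cells and less RNA per cell cannot be told apart. Log2 changes are differences of log2(CPM + 1), given ± SE from limma with p-values adjusted over all 11380 genes by the Benjamini-Hochberg method, and the word called means an adjusted p below 0.05. The added 1 makes these changes smaller than the ratio of CPM for genes near 1 CPM.

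Socs1, the direct JAK inhibitor, was almost silent in untreated macrophages and was raised strongly by either cytokine, and most by both. In IL-4 it measured 120.0, 75.1 and 64.8 CPM at 2 h and 42.5, 66.9 and 55.6 CPM at 4 h. In IFN-γ it measured 107, 92.4 and 86.8 CPM at 2 h and 127, 99.4 and 114 CPM at 4 h. With both cytokines it measured 139, 156 and 147 CPM at 2 h and 256, 306 and 209 CPM at 4 h, against 1.30, 0.838 and 0.510 CPM in untreated libraries. Every treated library lay above every untreated one, and the highest untreated library rested on 48 reads. The mean was 291-fold the untreated mean in both cytokines at 4 h, a log2 change of 7.10 ± 0.22 (adjusted p = 8.6e-13). It was 98.1-fold at 2 h of IL-4 and 62.2-fold at 4 h of IL-4, against 108-fold and 129-fold in IFN-γ at the same times.

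Socs1 had the largest change of all 11380 genes tested at 2 h of IL-4, ranking 1 by absolute log2 change. Its rank was 9 at 4 h of IL-4, 9 at 2 h of IFN-γ, 20 at 4 h of IFN-γ, 6 at 2 h of both cytokines and 9 at 4 h of both. From the highest level to the lowest, its groups ran both at 4 h (257 ± 48.4 CPM, SD), both at 2 h (147 ± 8.94), IFN-γ at 4 h (114 ± 13.9), IFN-γ at 2 h (95.4 ± 10.4), IL-4 at 2 h (86.7 ± 29.3), IL-4 at 4 h (55.0 ± 12.2) and untreated (0.884 ± 0.398). The libraries of IFN-γ at 4 h and 2 h overlapped, as did those of IFN-γ at 2 h and IL-4 at 2 h, and those of IL-4 at 2 h and 4 h. The other neighbours in this order did not overlap.

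Socs3, the other direct JAK inhibitor, was raised by IFN-γ, and no change was called in IL-4. It measured 483, 266 and 342 CPM at 2 h of IFN-γ and 711, 175 and 682 CPM at 4 h of IFN-γ. The combination gave 339, 249 and 249 CPM at 2 h and 279, 117 and 151 CPM at 4 h. In IL-4 it measured 11.9, 7.33 and 14.0 CPM at 2 h and 8.49, 4.28 and 11.5 CPM at 4 h, against 17.8, 7.73 and 13.0 CPM in untreated libraries. Every library with IFN-γ lay above every library without it, and the IL-4 libraries overlapped the untreated ones at both times. Replicate 2 was the lowest or tied for the lowest in each of the 7 groups, and in IFN-γ at 4 h its 175 CPM stood apart from the other 2 libraries.

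The Socs3 log2 change was 4.74 ± 0.49 at 2 h of IFN-γ (adjusted p = 2.0e-06) and 5.06 ± 0.49 at 4 h (adjusted p = 4.1e-07). In both cytokines it was 4.39 ± 0.49 at 2 h (adjusted p = 3.1e-06) and 3.70 ± 0.49 at 4 h (adjusted p = 1.0e-05). In IL-4 it was -0.17 ± 0.49 at 2 h (95% confidence interval -1.20 to 0.86, adjusted p = 0.967) and -0.63 ± 0.49 at 4 h (-1.65 to 0.40, adjusted p = 0.423). The sign at 2 h of IL-4 flipped to 0.21 on the deposited scale, so no direction is given for it. Unlike Socs1, Socs3 was already present in untreated macrophages, at 12.9 ± 5.03 CPM, and its order ran IFN-γ at 4 h (523 ± 301), IFN-γ at 2 h (364 ± 110.3), both at 2 h (279 ± 52.1), both at 4 h (182 ± 85.6), untreated, IL-4 at 2 h (11.1 ± 3.42) and IL-4 at 4 h (8.08 ± 3.62). The only neighbours in this order that did not overlap were both at 4 h and untreated.

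Socs2, which binds receptor chains such as that for growth hormone, was raised mainly by IL-4. It measured 32.4, 21.2 and 27.1 CPM at 2 h of IL-4 and 50.2, 42.8 and 39.8 CPM at 4 h of IL-4. In IFN-γ it measured 2.24, 1.38 and 1.39 CPM at 2 h and 0.770, 0.686 and 0.433 CPM at 4 h. The combination gave 10.3, 6.12 and 8.02 CPM at 2 h and 14.7, 6.81 and 9.46 CPM at 4 h, against 0.651, 0.299 and 0.483 CPM in untreated libraries. The 3 kinds of treatment formed separate levels, with IL-4 alone highest, both cytokines in between and IFN-γ alone lowest, and no library of one kind overlapped another. IFN-γ and untreated levels rested on few reads, from 16 to 90 in IFN-γ and from 5 to 36 in the untreated libraries.

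The Socs2 log2 change was 4.23 ± 0.23 at 2 h of IL-4 (adjusted p = 3.7e-09) and 4.94 ± 0.23 at 4 h (adjusted p = 1.7e-10), with ranks of 9 and 8 among all genes. With both cytokines it was 2.61 ± 0.23 at 2 h (adjusted p = 2.6e-07) and 2.88 ± 0.23 at 4 h (adjusted p = 3.5e-08). In IFN-γ alone it was 0.84 ± 0.23 at 2 h (adjusted p = 0.0149), where all 3 libraries lay above the untreated range. At 4 h of IFN-γ it was 0.14 ± 0.23 (95% confidence interval -0.34 to 0.63, adjusted p = 0.675), and the libraries overlapped. The call at 2 h of IFN-γ was lost without IFN-γ replicate 1 (0.70, adjusted p = 0.0775) and without untreated replicate 2 (0.76, adjusted p = 0.0622), and with replicate 3 left out of all groups (adjusted p = 0.201). Mean levels were 44.3 ± 5.39 CPM at 4 h of IL-4, 26.9 ± 5.61 at 2 h of IL-4, 10.3 ± 3.99 and 8.15 ± 2.09 at 4 h and 2 h of both, 1.67 ± 0.492 and 0.630 ± 0.176 at 2 h and 4 h of IFN-γ, and 0.478 ± 0.176 in untreated libraries (SD, n = 3 each). In this order the libraries of both cytokines at 4 h and 2 h overlapped, as did those of IFN-γ at 4 h and untreated, and the other neighbours did not.

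Cish, which encodes CIS and was the founding member of the family, was raised by every treatment, with the highest means in both cytokines, then in IL-4, then in IFN-γ. It measured 66.1, 47.4 and 63.2 CPM at 2 h of IL-4 and 75.3, 60.4 and 66.7 CPM at 4 h of IL-4. In IFN-γ it measured 42.4, 19.5 and 34.0 CPM at 2 h and 43.6, 12.4 and 31.4 CPM at 4 h. In both cytokines it measured 129, 71.8 and 112 CPM at 2 h and 165, 126 and 126 CPM at 4 h, against 0.841, 0.419 and 0.899 CPM in untreated libraries. Treated and untreated libraries did not overlap, and neither did the libraries of IL-4 and IFN-γ at matched times. Replicate 2 was the lowest library of the group at 2 h and 4 h of IL-4, of IFN-γ and at 2 h of both.

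The Cish log2 change was 5.12 ± 0.35 at 2 h of IL-4 (adjusted p = 6.1e-08) and 5.32 ± 0.35 at 4 h (adjusted p = 1.6e-08). In IFN-γ it was 4.20 ± 0.35 at 2 h (adjusted p = 2.4e-07) and 3.98 ± 0.35 at 4 h (adjusted p = 1.6e-07). In both cytokines it was 5.91 ± 0.35 at 2 h (adjusted p = 3.6e-09) and 6.35 ± 0.35 at 4 h (adjusted p = 5.4e-10), where the mean was 193-fold the untreated mean. Mean levels were 139 ± 22.2 and 104 ± 29.6 CPM at 4 h and 2 h of both, 67.5 ± 7.52 and 58.9 ± 10.1 at 4 h and 2 h of IL-4, 32.0 ± 11.6 and 29.1 ± 15.7 at 2 h and 4 h of IFN-γ, and 0.720 ± 0.262 in untreated libraries (SD, n = 3 each). Adjacent groups overlapped in this order except at the steps from IL-4 at 2 h to IFN-γ at 2 h and from IFN-γ at 4 h to untreated. Cish overlaps the annotated pseudogene Gm17040 and the antisense gene Gm17041 on the opposite strand. Neither is listed in the table used here and strand use in counting is not given in the sources used here, so reads from these genes and from Cish cannot be told apart.

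**Figure D1:**
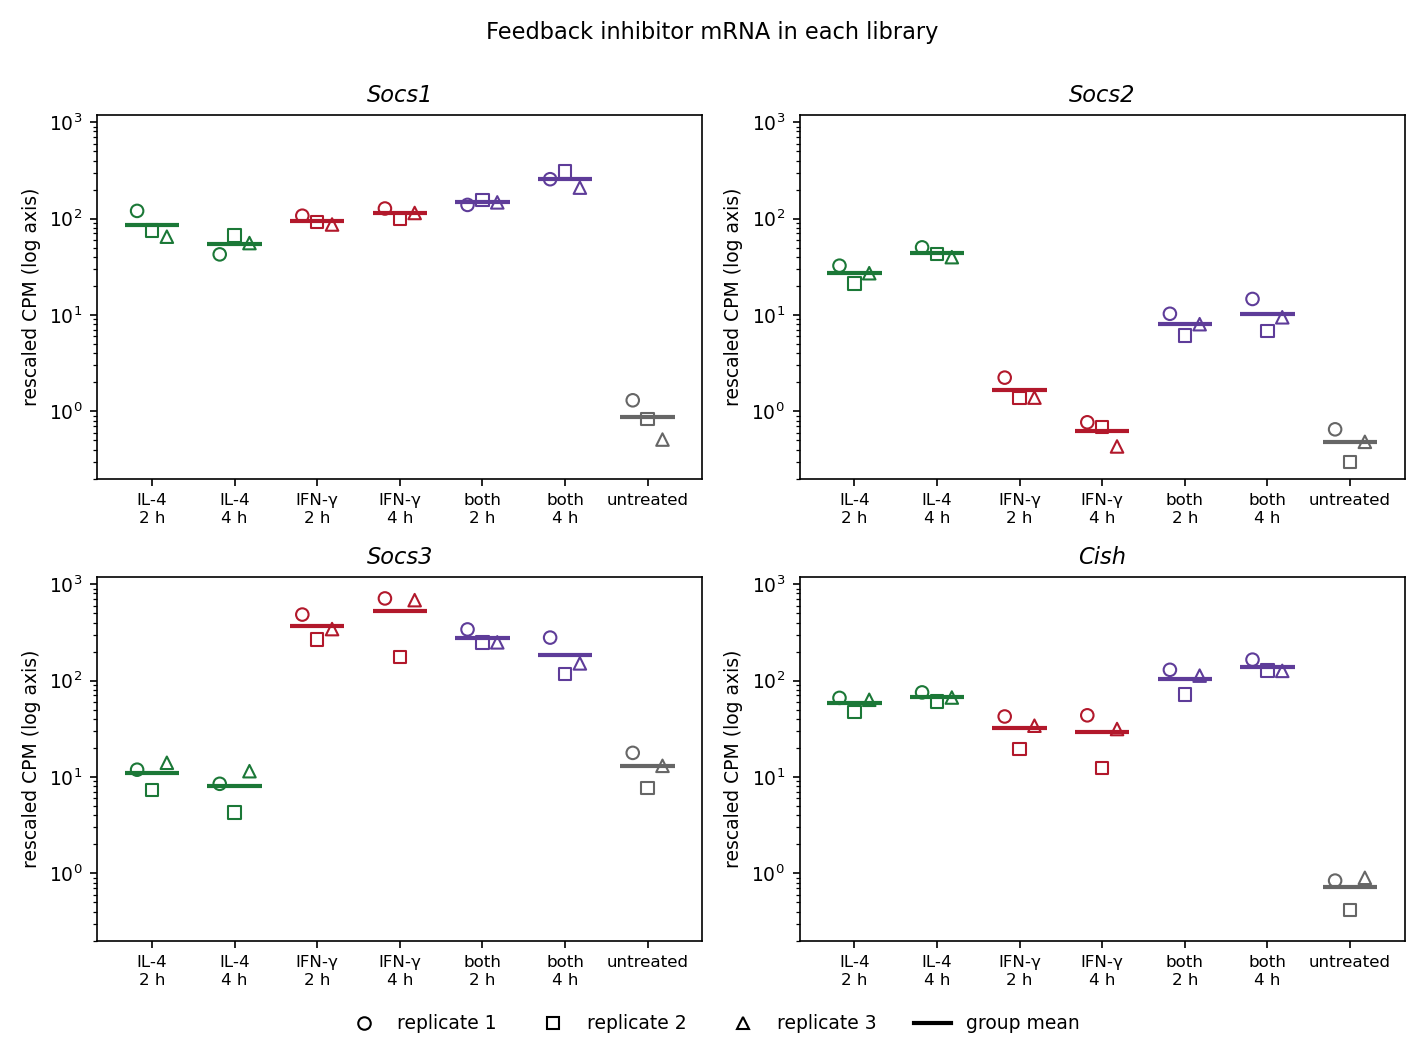
Rescaled CPM (log axis) of Socs1, Socs2, Socs3 and Cish in each of the 21 libraries, by treatment and time with untreated at the right. Symbols give the replicate number and bars the group mean; Socs1 and Cish stand far above untreated in all 6 treatments, Socs2 mainly with IL-4 and Socs3 only in libraries that received IFN-γ.

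Counted against all genes, 3 of 4 members were called higher at 2 h of IL-4, where 8.62% of all genes tested were called in either direction, and 3 of 4 at 4 h of IL-4, where 22.1% were called. In IFN-γ 4 of 4 were called higher at 2 h (17.9% of all genes called) and 3 of 4 at 4 h (39.2%). In both cytokines 4 of 4 were called higher at 2 h (22.2%) and at 4 h (42.6%). The 6 treatments share the same 3 untreated libraries, so these counts are not independent of each other. The pattern over the 21 libraries was most alike between Cish and Socs1 (Pearson r = 0.92 on the log2 scale) and least alike between Socs2 and Socs3 (r = -0.47). For Cish and Socs2 r was 0.66, for Socs1 and Socs3 0.55, for Socs1 and Socs2 0.39, and for Cish and Socs3 0.32. All of these r values rest on the same 7 groups and describe group means as much as libraries.

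Set directly against each other, IL-4 and IFN-γ separated Socs2 and Socs3 in opposite directions. At 2 h, Socs2 was higher in IL-4 than in IFN-γ by log2 3.38 ± 0.23 (adjusted p = 1.8e-08) and Socs3 was lower by -4.92 ± 0.49 (adjusted p = 1.1e-06). At 4 h the differences were 4.80 ± 0.23 for Socs2 (adjusted p = 1.0e-10) and -5.69 ± 0.49 for Socs3 (adjusted p = 7.7e-08), which are 70.3-fold higher and 64.6-fold lower means in IL-4. Every Socs2 library of IL-4 lay above every one of IFN-γ, and every Socs3 library of IL-4 lay below every one of IFN-γ.

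Socs1 and Cish had smaller differences between the single cytokines. For Socs1 the IL-4 to IFN-γ difference was -0.18 ± 0.22 at 2 h (95% confidence interval -0.64 to 0.27, adjusted p = 0.709) and -1.05 ± 0.22 at 4 h (adjusted p = 8.1e-04), where IL-4 libraries reached at most 66.9 CPM and IFN-γ libraries at least 99.4 CPM. For Cish it was 0.91 ± 0.35 at 2 h (0.17 to 1.66, adjusted p = 0.0854, and 0.00152 with replicate number as a block) and 1.35 ± 0.35 at 4 h (adjusted p = 0.00529). At 4 h the Cish difference was 0.84 without IFN-γ replicate 2, and its call was lost with replicate 3 left out of all groups (adjusted p = 0.0832). In all, 2 of 4 members were called at 2 h, where 19.4% of all genes were, and 4 of 4 at 4 h, where 42.0% were.

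Few changes of the members between 2 h and 4 h were called. In IL-4, limma called 0 of 4 members (2.81% of all genes called). At an unadjusted p under 0.05 there were 2, Socs1 with a 4 h to 2 h log2 change of -0.62 ± 0.22 (adjusted p = 0.155) and Socs2 with 0.71 ± 0.23 (adjusted p = 0.125). The Socs1 change was -0.36 without replicate 1 at 2 h, which had the highest level of the group at 120.0 CPM, and -0.19 without replicate 1 at both times. Both changes were called with replicate number as a block, at adjusted p = 0.0288 and 0.00109, while edgeR and DESeq2 on recovered reads each called 0. The 4 h and 2 h libraries of IL-4 overlapped for Socs1 and were separate for Socs2, which had 39.8 CPM or more at 4 h and 32.4 CPM or less at 2 h.

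In IFN-γ 1 of 4 members changed between the times (17.7% of all genes called). Socs2 fell, by log2 -0.70 ± 0.23 (adjusted p = 0.044), to 0.630 CPM at 4 h, against 1.67 CPM at 2 h. That call was lost when any 1 of its 6 libraries was left out, at adjusted p = 0.0585 to 0.16. In both cytokines 1 of 4 was called (18.3% of all genes). This was Socs1, higher at 4 h by 0.78 ± 0.22 (adjusted p = 0.0177), with 209 to 306 CPM at 4 h and 139 to 156 CPM at 2 h. The call was lost on the deposited scale (0.67, adjusted p = 0.101), without replicate 1 at 2 h (0.74, adjusted p = 0.0595) and without replicate 2 at 4 h (0.65, adjusted p = 0.0794), and with replicate 2 or 3 left out of all groups (adjusted p = 0.106 and 0.0946). Socs3 in both cytokines was -0.69 ± 0.49 (adjusted p = 0.365, and 0.0444 with replicate number as a block).

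The courses themselves differed between treatments for 2 members. The 4 h to 2 h change of Socs2 was higher in IL-4 than in IFN-γ, by log2 1.41 ± 0.32 (adjusted p = 0.0127, and 0.287 with replicate 3 left out of all groups), and it was the 1 of 4 members called where 8.24% of all genes were. The same difference was -0.77 ± 0.69 for Socs3 (adjusted p = 0.604), and -0.87 ± 0.31 for Socs1 (adjusted p = 0.0957, and 0.0201 with replicate number as a block). The change of Socs1 was higher in both cytokines than in IL-4 alone, by 1.40 ± 0.31 (adjusted p = 0.0174), again 1 of 4 members, with 2.89% of all genes called. That call was lost on the deposited scale (1.24, adjusted p = 0.149) and without replicate 1 of IL-4 at 4 h (1.23, adjusted p = 0.0513), and with any 1 replicate number left out of all groups (adjusted p = 0.061 to 0.245). Between both cytokines and IFN-γ alone, limma called 0 of 4 courses (0.360% of all genes). At an unadjusted p under 0.05 there was 1, Socs2 (0.98 ± 0.32, adjusted p = 0.332), which was also called by DESeq2 and with replicate number as a block (adjusted p = 0.00387) and not by edgeR.

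Adding IFN-γ to IL-4 moved the members in different directions. At 4 h Socs3 was higher in both cytokines than in IL-4 alone by log2 4.32 ± 0.49 (adjusted p = 3.4e-06) and Socs1 by 2.21 ± 0.22 (adjusted p = 7.3e-07), while Socs2 was lower by -2.05 ± 0.23 (adjusted p = 3.3e-06). Socs2 averaged 10.3 CPM in both cytokines and 44.3 CPM in IL-4, a mean 4.30-fold lower, and no library of one group reached the other. At 2 h the same differences were 4.56 ± 0.49 for Socs3 (adjusted p = 5.0e-06), 0.81 ± 0.22 for Socs1 (adjusted p = 0.0162) and -1.62 ± 0.23 for Socs2 (adjusted p = 9.5e-05). Socs2 was thus the one member with a lower mean in both cytokines than in IL-4 alone, at both times.

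Cish was higher in both cytokines than in IL-4 by 1.03 ± 0.35 at 4 h (adjusted p = 0.0356), with 126 to 165 CPM in both cytokines against 60.4 to 75.3 CPM in IL-4. At 2 h the difference was 0.79 ± 0.35 (95% confidence interval 0.04 to 1.54, adjusted p = 0.172, and 0.00573 with replicate number as a block). Altogether 3 of 4 members were called at 2 h, where 14.8% of all genes were, and 4 of 4 at 4 h, where 30.9% were. The Cish call at 4 h was lost on the deposited scale (0.77, adjusted p = 0.0647) and when any 1 of its 6 libraries was left out (adjusted p = 0.0564 to 0.117), as well as with replicate 1 or 3 left out of all groups (0.141 and 0.245). The Socs1 call at 2 h was lost on the deposited scale (0.71, adjusted p = 0.0857), without IL-4 replicate 2 (0.73, adjusted p = 0.06) or 3 (0.63, adjusted p = 0.0998) and without replicate 2 of both cytokines (0.76, adjusted p = 0.0566), and with replicate 2 or 3 left out of all groups (adjusted p = 0.136 and 0.306).

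Adding IL-4 to IFN-γ raised Socs2 and Cish at both times and Socs1 at 4 h. At 4 h the log2 difference between both cytokines and IFN-γ alone was 2.74 ± 0.23 for Socs2 (adjusted p = 4.4e-07), 2.37 ± 0.35 for Cish (adjusted p = 2.1e-04) and 1.16 ± 0.22 for Socs1 (adjusted p = 0.0014). At 2 h it was 1.77 ± 0.23 for Socs2 (adjusted p = 1.8e-04), 1.70 ± 0.35 for Cish (adjusted p = 0.00948) and 0.63 ± 0.22 for Socs1 (adjusted p = 0.191, and 0.0436 with replicate number as a block). Members called numbered 2 of 4 at 2 h, where 3.01% of all genes were called, and 3 of 4 at 4 h, where 11.9% were. The Cish call at 2 h was lost without IFN-γ replicate 2 (1.39, adjusted p = 0.0594) and without replicate 1 of both cytokines (1.53, adjusted p = 0.0645). With 1 replicate number left out of all groups it was lost without replicate 1 or 3 (adjusted p = 0.108 and 0.508), and the Socs2 call at 2 h was lost without replicate 3 (adjusted p = 0.139).

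Socs3 was the member whose mean was lower with both cytokines than with IFN-γ alone. The difference was -0.35 ± 0.49 at 2 h (95% confidence interval -1.38 to 0.67, adjusted p = 1.0) and -1.37 ± 0.49 at 4 h (-2.39 to -0.34, adjusted p = 0.0837). At 4 h the 3 libraries had 279, 117 and 151 CPM in both cytokines, against 711, 175 and 682 CPM in IFN-γ, so that each replicate number was lower in both cytokines while the group ranges overlapped. With replicate number as a block the 4 h difference was called (adjusted p = 7.88e-04), as it was by DESeq2 (adjusted p = 0.0106) and not by edgeR (adjusted p = 0.053). Without IFN-γ replicate 2 it was -2.03 (adjusted p = 0.00323), and without replicate 1 of both cytokines it was -1.72 (adjusted p = 0.0491).

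**Figure D2:**
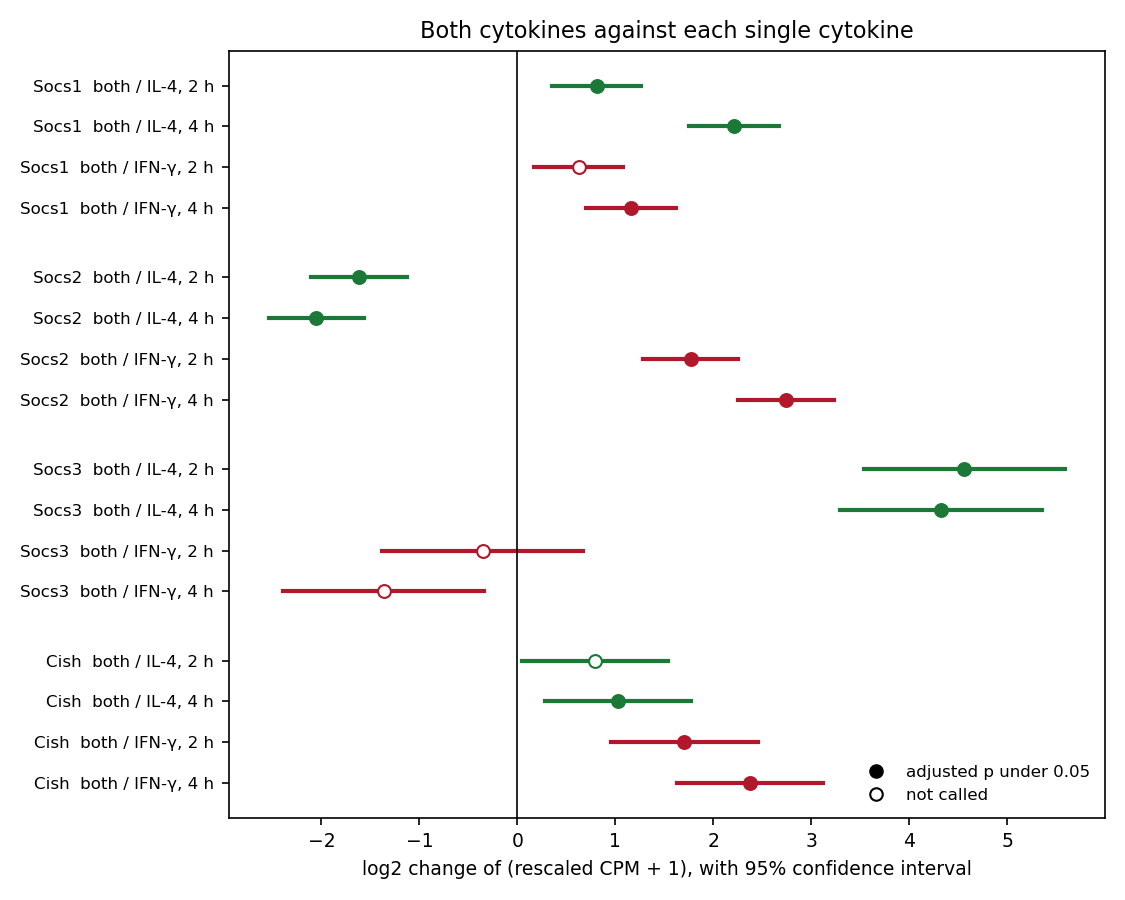
Log2 change of each gene in both cytokines against IL-4 (green) and against IFN-γ (red) at 2 h and 4 h, with 95% confidence intervals. Filled points passed an adjusted p of 0.05; Socs2 lies below 0 against IL-4 and above 0 against IFN-γ, and Socs3 lies near 4 against IL-4 and at or below 0 against IFN-γ.

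The combination was next set against what the single cytokines would give together. On the log2(CPM + 1) scale the interaction is both cytokines minus IL-4 minus IFN-γ plus untreated. It is 0 where the single-cytokine fold changes of CPM + 1 multiply, which are smaller than the ratios of CPM for genes near 1 CPM. For Socs1 it was -4.89 ± 0.31 at 2 h (adjusted p = 2.0e-07) and -3.73 ± 0.31 at 4 h (adjusted p = 4.1e-06), the lowest of all genes at 2 h. For Cish it was -3.42 ± 0.50 at 2 h (adjusted p = 0.00422) and -2.95 ± 0.50 at 4 h (adjusted p = 0.00419), and for Socs2 -2.46 ± 0.32 (adjusted p = 0.00208) and -2.20 ± 0.32 (adjusted p = 0.00147) at the same times. Socs3 had -0.18 ± 0.69 at 2 h (95% confidence interval -1.64 to 1.27, adjusted p = 1.0) and -0.74 ± 0.69 at 4 h (-2.19 to 0.71, adjusted p = 0.822). At each time 3 of 4 members were called, where 0.369% of all genes were called at 2 h and 1.70% at 4 h. The Cish interaction was no longer called with untreated replicate 1 as the only control (-3.31, adjusted p = 0.0642 at 2 h, and -2.84, adjusted p = 0.0588 at 4 h). Leaving 1 replicate number out of all groups also ended calls. The Cish calls were lost without replicate 1 (adjusted p = 0.166 at 2 h and 0.145 at 4 h) and without replicate 3 (0.737 and 0.466), and the Socs2 calls without replicate 3 (0.591 and 0.218), while the Socs1 calls were kept in each case.

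A second reading added the single-cytokine increments in CPM, as IL-4 plus IFN-γ minus untreated of the same replicate number. For Socs1 at 4 h the combination averaged 257 CPM and the sum 168 CPM, an excess of 89.3 ± 50.3 CPM (SD, n = 3) that was positive in 3 of 3 replicate numbers. For Cish at 4 h the combination averaged 139 CPM and the sum 95.9 CPM, an excess of 43.2 ± 13.0 CPM, also positive in 3 of 3. These 2 genes were therefore below a product of fold changes of CPM + 1 and above a sum of increments at 4 h. At 2 h the excess was -33.8 ± 46.3 CPM for Socs1 and 14.4 ± 8.30 CPM for Cish. The Socs1 value at 2 h rested mostly on replicate 1, at -87.2 CPM against -10.3 and -3.95 CPM in replicates 2 and 3, and without replicate 1 its mean was -7.15 CPM.

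Socs2 and Socs3 fell short of the sum. For Socs2 at 4 h the combination averaged 10.3 CPM and the sum 44.4 CPM, a shortfall of -34.1 ± 3.37 CPM, and at 2 h the shortfall was -20.0 ± 3.77 CPM. For Socs3 at 4 h the combination averaged 182 CPM and the sum 518 CPM, a shortfall of -336 ± 249 CPM, and at 2 h it was -83.2 ± 61.4 CPM. No change of Socs3 was called in IL-4, and its sum was close to IFN-γ alone, which averaged 364 CPM at 2 h and 523 CPM at 4 h. The Socs3 shortfall therefore largely repeats the difference between both cytokines and IFN-γ alone, which the main fit called at neither time. The Socs2 sum at 4 h was likewise close to IL-4 alone, at 44.3 CPM. The Socs2 and Socs3 differences were negative in 3 of 3 replicate numbers at both times. An exact permutation test on 3 pairs cannot give a two-sided p below 0.25, so none is given for these differences.

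**Figure D3:**
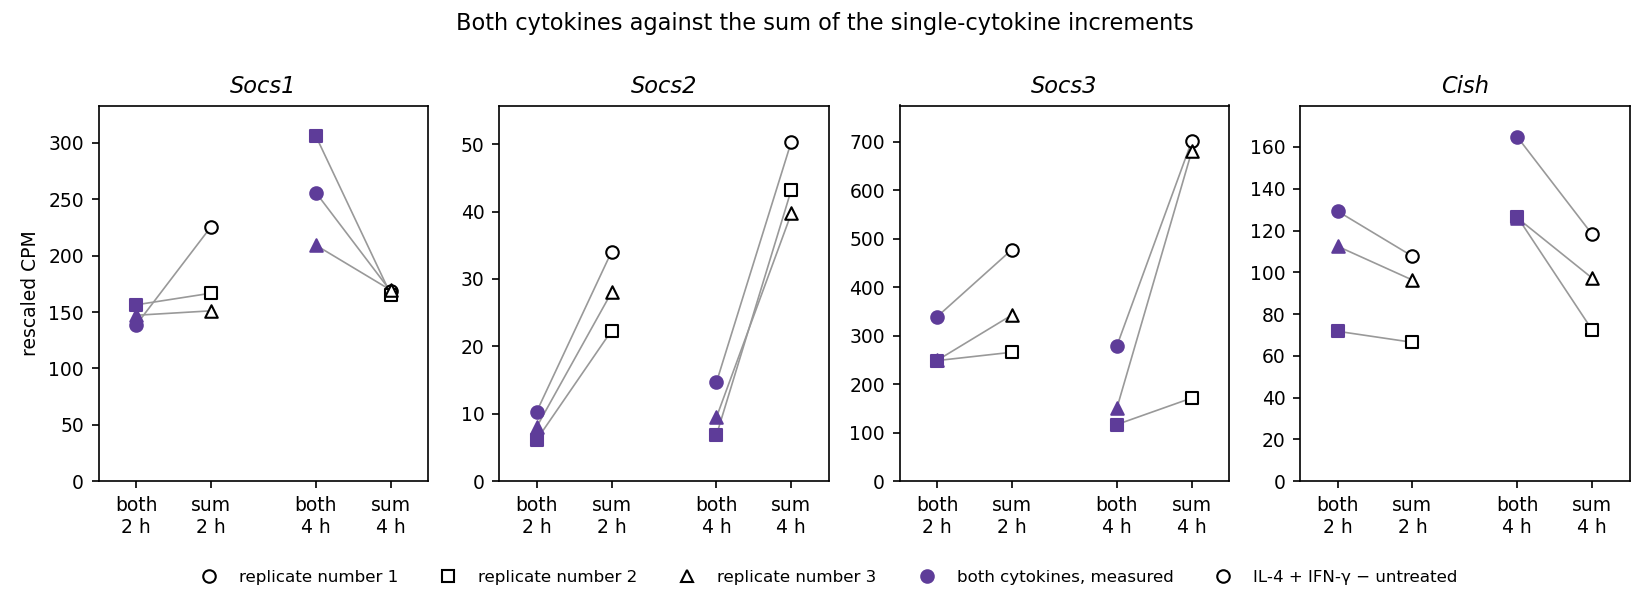
Rescaled CPM in both cytokines (purple) beside the sum of the single-cytokine values minus untreated (open), at 2 h and 4 h, with lines joining the same replicate number. At 4 h the measured value exceeds the sum for Socs1 and Cish and is under it for Socs2 and Socs3 in each of the 3 replicate numbers.

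Divided by length, the members could be set beside one another. Over the union of annotated exons (2908 bp for Socs1, 9531 bp for Socs2, 2891 bp for Socs3 and 6419 bp for Cish, GENCODE vM21), the summed level of the 4 genes was 45.6 and 36.9 CPM per kb at 2 h and 4 h of IL-4. It was 164 and 224 CPM per kb at 2 h and 4 h of IFN-γ and 164 and 174 CPM per kb at 2 h and 4 h of both, against 4.91 CPM per kb in untreated libraries. The gene that led this sum differed by treatment. Socs1 made up 64.6% and 51.0% of it at 2 h and 4 h of IL-4, and Socs3 made up 76.3% and 76.6% of it at 2 h and 4 h of IFN-γ, against 90.1% for Socs3 in untreated libraries.

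In both cytokines the gene with the highest mean differed by time. Socs1 made up 51.6% of the sum at 4 h and 31.2% at 2 h, while Socs3 made up 35.3% at 4 h and 58.4% at 2 h. The shares at 4 h overlapped between libraries, at 41.6% to 63.4% for Socs1 and 24.3% to 45.6% for Socs3. In replicate 1 at 4 h Socs3 still led, with 96.5 CPM per kb against 88.0 for Socs1. Socs2 contributed at most 12.7%, at 4 h of IL-4. These shares depend on the length used, and Socs2 has 14 annotated transcripts. The first annotated transcript has 2222 bp for Socs2 and 2850 bp for Cish, against 9531 and 6419 bp for all exons. With the length of the first annotated transcript in place of all exons, Socs2 reached 19.9 CPM per kb at 4 h of IL-4, beside 19.8 for Socs1 and 23.7 for Cish, so that Socs1 no longer led there. In the IFN-γ, combination and untreated groups the order of the 4 genes was the same with either length.

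**Figure D4:**
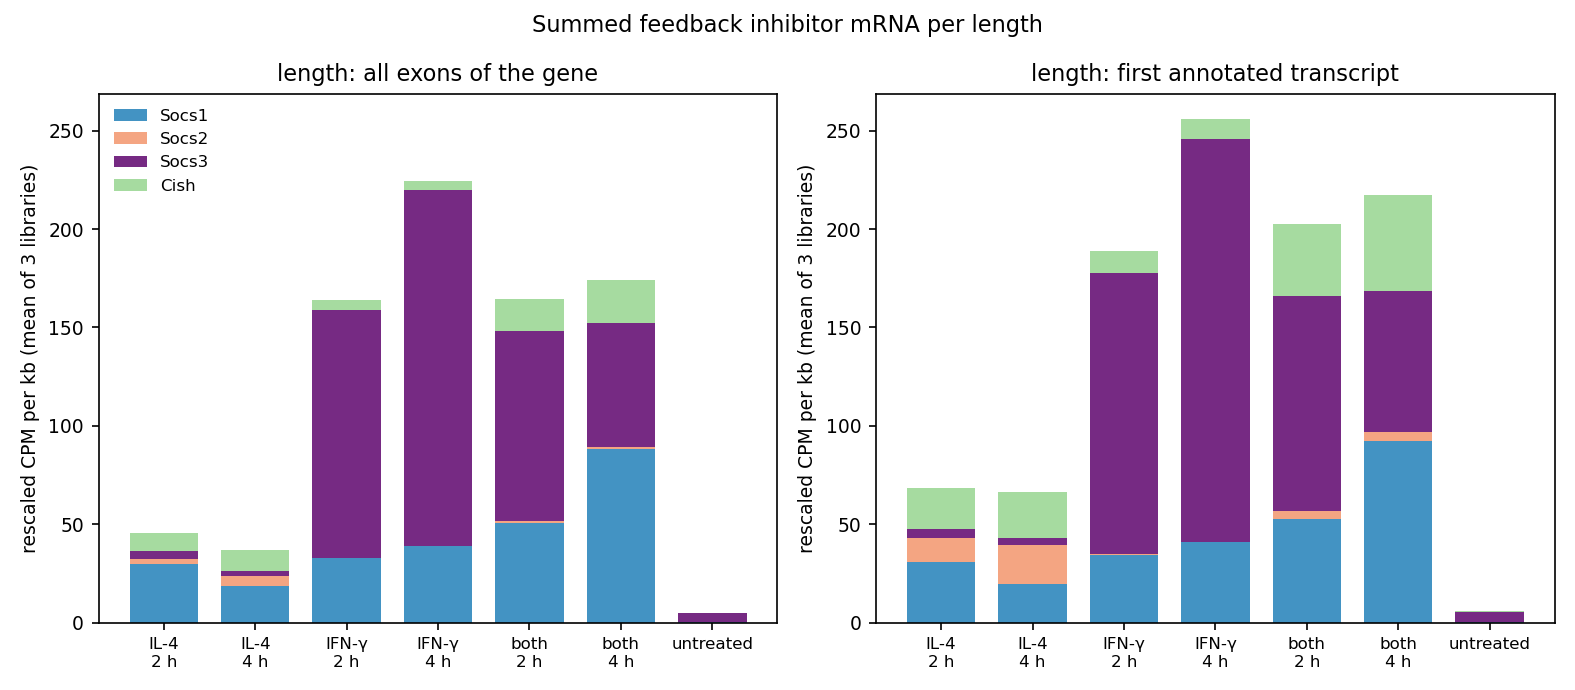
Mean rescaled CPM per kb of the 4 genes, stacked, by treatment and time with untreated at the right, using the length of all exons (left) or of the first annotated transcript (right). Socs3 takes most of the bar in IFN-γ, Socs1 is the largest part of it in both cytokines at 4 h, and the bar of the untreated group is the shortest.

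The other 4 SOCS-box genes of the family, whose cytokine targets are less well defined, had log2 changes between -1.38 and 1.13 in the 6 treatments. At 4 h of IL-4, 1 of 4 was higher (with replicate number as a block also 2 lower, Socs6 at -0.73 and Socs7 at -0.22, which turned to 0.24 on the deposited scale). This was Socs5 at log2 0.92 ± 0.11 (adjusted p = 9.7e-06), a gene known to restrain IL-4 receptor signalling in T cells. Its level was 60.6 ± 7.57 CPM at 4 h of IL-4, against 31.3 ± 0.758 CPM in untreated libraries, and in both cytokines it was 0.05 ± 0.11 (adjusted p = 0.75). Socs5 in both cytokines was lower than in IL-4 alone by -0.88 ± 0.11 at 4 h (adjusted p = 1.0e-05), the direction that Socs2 also took. At 4 h of IFN-γ Socs7 was higher (1.07 ± 0.11, adjusted p = 1.4e-06) and Socs6 was lower (-1.37 ± 0.26, adjusted p = 5.6e-04), and Socs4 measured 0.13 ± 0.15 (adjusted p = 0.53). With the block Socs5 was also lower there, at -0.27 (adjusted p = 0.056, and 0.030 with the block).

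The genes upstream of the members were examined in lists. At 4 h, 22.1% of all genes were called in IL-4, 39.2% in IFN-γ and 42.6% in both, and the counts below stand beside these shares. With replicate number as a block, 5409, 7203 and 7595 of the 11380 genes were called in IL-4, IFN-γ and both, and list counts from that fit follow those of each list. On the deposited scale the median of all genes tested was 0.43 in IL-4, 0.10 in IFN-γ and 0.19 in both. List counts and medians on that scale carry this shift, and the share of all genes called there is not given. Of 9 receptor and JAK genes, 2 were higher and 1 lower at 4 h of IL-4, 6 were higher at 4 h of IFN-γ, and 5 were higher and 1 lower at 4 h of both. With the block, 3 were higher and 2 lower in IL-4, 7 higher and 1 lower in IFN-γ, and 8 higher and 1 lower in both. The list's median log2 change was -0.07 in IL-4 (0.41 on the deposited scale), 1.27 in IFN-γ and 0.46 in both, beside -0.01, 0.00 and 0.00 for all genes tested. Il4ra, the signalling chain of the IL-4 receptor, was higher in IL-4 (2.35 ± 0.25, adjusted p = 3.9e-06), in IFN-γ (2.33 ± 0.25, adjusted p = 1.7e-06) and in both (3.23 ± 0.25, adjusted p = 2.8e-08) at 4 h. Jak2, a kinase that SOCS1 and SOCS3 inhibit, was also higher in all 3, by 1.47 ± 0.17, 1.77 ± 0.17 and 1.95 ± 0.17 at 4 h. Ifngr1, the ligand-binding chain of the IFN-γ receptor, was lower in both cytokines at 4 h (-1.71 ± 0.34, adjusted p = 6.2e-04), and measured -0.54 ± 0.34 in IL-4 and -0.85 ± 0.34 in IFN-γ (adjusted p = 0.30 and 0.058, and 2.9e-05 and 7.7e-08 with the block).

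Of the 7 STAT genes, 5 were higher at 4 h of IFN-γ and 1 was lower at 4 h of IL-4, with list medians of 1.13 and -0.23 (1.25 and 0.25 on the deposited scale). Stat3, which Socs3-sensitive receptors activate, was higher at 4 h of IFN-γ by 1.85 ± 0.26 (adjusted p = 2.3e-05). In IL-4 at 4 h Stat3 measured -0.23 ± 0.26 (adjusted p = 0.61), so it was called in IFN-γ and not in IL-4, as was Socs3. This was not particular to Stat3. Stat2, Stat5a and Stat5b, at 1.70, 1.09 and 1.13 at 4 h of IFN-γ, were also called there and not at 4 h of IL-4. Stat6 at 4 h of IL-4 was lower by -0.38 ± 0.12 (adjusted p = 0.037), which turned to 0.10 on the deposited scale. On that scale, where the median of all genes was 0.43 at 4 h of IL-4, 2 STAT genes were higher there and 0 lower. With the block 1 was higher and 2 were lower. In IFN-γ the count of higher STAT genes was 5 on both scales, and with the block 5 were higher and 1 lower.

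Cytokines and receptors that signal through Stat3, and receptors that CIS or SOCS2 are known to restrain, were counted as well. Of 16 listed cytokines and receptors of the gp130, IL-10 and G-CSF kind, 9 were expressed enough to test. At 4 h of IL-4, 1 was higher and 1 lower (4 and 0 on the deposited scale, 3 and 1 with the block). At 4 h of both, 5 were higher and 2 lower (5 and 0 on the deposited scale, 6 and 2 with the block). At 4 h of IFN-γ, 3 were higher and 2 lower (3 and 1 on the deposited scale, 5 and 2 with the block). Il27, a subunit of a gp130-using cytokine, was higher there by 3.88 ± 0.27 (adjusted p = 1.1e-08) and was lower in both cytokines than in IFN-γ alone by -2.08 ± 0.27 (adjusted p = 5.7e-05). Il6ra, the IL-6-binding receptor chain, was lower in IFN-γ by -1.02 ± 0.31 (adjusted p = 0.015, and 0.064 on the deposited scale). Of 11 receptors known to be restrained by CIS or SOCS2, 7 were tested. At 4 h of IL-4, 0 were called (1 higher and 1 lower with the block), and at 4 h of both 4 were higher and 1 lower (4 and 2 with the block). At 4 h of IFN-γ, 5 were higher and 1 lower (5 higher and 2 lower with the block). The receptor chains Csf2rb (1.93 ± 0.30, adjusted p = 7.4e-05) and Csf2rb2 (1.88 ± 0.25, adjusted p = 1.4e-05) led them. At 4 h of IL-4 these chains measured 0.73 ± 0.30 (adjusted p = 0.096, 4.8e-05 with the block and 0.0077 on the deposited scale) and -0.21 ± 0.25 (adjusted p = 0.63).

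Partners and parallel brakes of the SOCS proteins were counted last. Of 6 subunits of the SOCS ubiquitin ligases, 0 were called at 4 h of IL-4 (5 higher on the deposited scale and 3 with the block). At 4 h of IFN-γ 3 were higher (1 on the deposited scale and 4 with the block). At 4 h of both 2 were higher (3 on the deposited scale and 4 with the block). Cul2 was first in IFN-γ and in both (1.50 ± 0.10, adjusted p = 8.2e-09, and 1.24 ± 0.10, adjusted p = 4.8e-08), well above the list medians of 0.37 and 0.35. At 4 h of IFN-γ Rnf7 had 58.5 ± 4.91 CPM and Tceb2 68.1 ± 10.4 CPM, against 54.4 ± 9.25 and 58.1 ± 12.2 CPM in untreated libraries (SD). Of 14 other negative regulators of JAK-STAT signalling, 2 were higher and 4 lower at 4 h of IL-4, 4 were higher and 1 lower at 4 h of IFN-γ, and 5 were higher and 3 lower at 4 h of both. On the deposited scale, where the median of all genes was 0.43 at 4 h of IL-4, the IL-4 count became 4 higher and 0 lower. With the block the counts were 3 higher and 5 lower in IL-4, 7 higher and 2 lower in IFN-γ, and 7 higher and 4 lower in both. Ptpn2, a phosphatase that acts on JAKs and STATs, was higher in all 3 treatments at 4 h, by 0.86 ± 0.19 in IL-4, 1.77 ± 0.19 in IFN-γ and 2.09 ± 0.19 in both (adjusted p = 0.0036, 1.7e-06 and 1.7e-07). Of 16 early STAT targets, 6 were higher and 1 lower at 4 h of IL-4, 9 were higher at 4 h of IFN-γ, and 12 were higher and 1 lower at 4 h of both. With the block these early targets numbered 7 higher and 4 lower in IL-4, 12 higher and 2 lower in IFN-γ, and 13 higher and 2 lower in both. Irf1, an interferon-induced transcription factor, was higher by 4.92 ± 0.28 at 4 h of IFN-γ and by 0.97 ± 0.28 at 4 h of IL-4 (adjusted p = 9.7e-10 and 0.018), and Pim1, a STAT-induced kinase, by 3.19 ± 0.30 and 1.31 ± 0.30 (adjusted p = 3.1e-07 and 0.004).

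**Figure D5:**
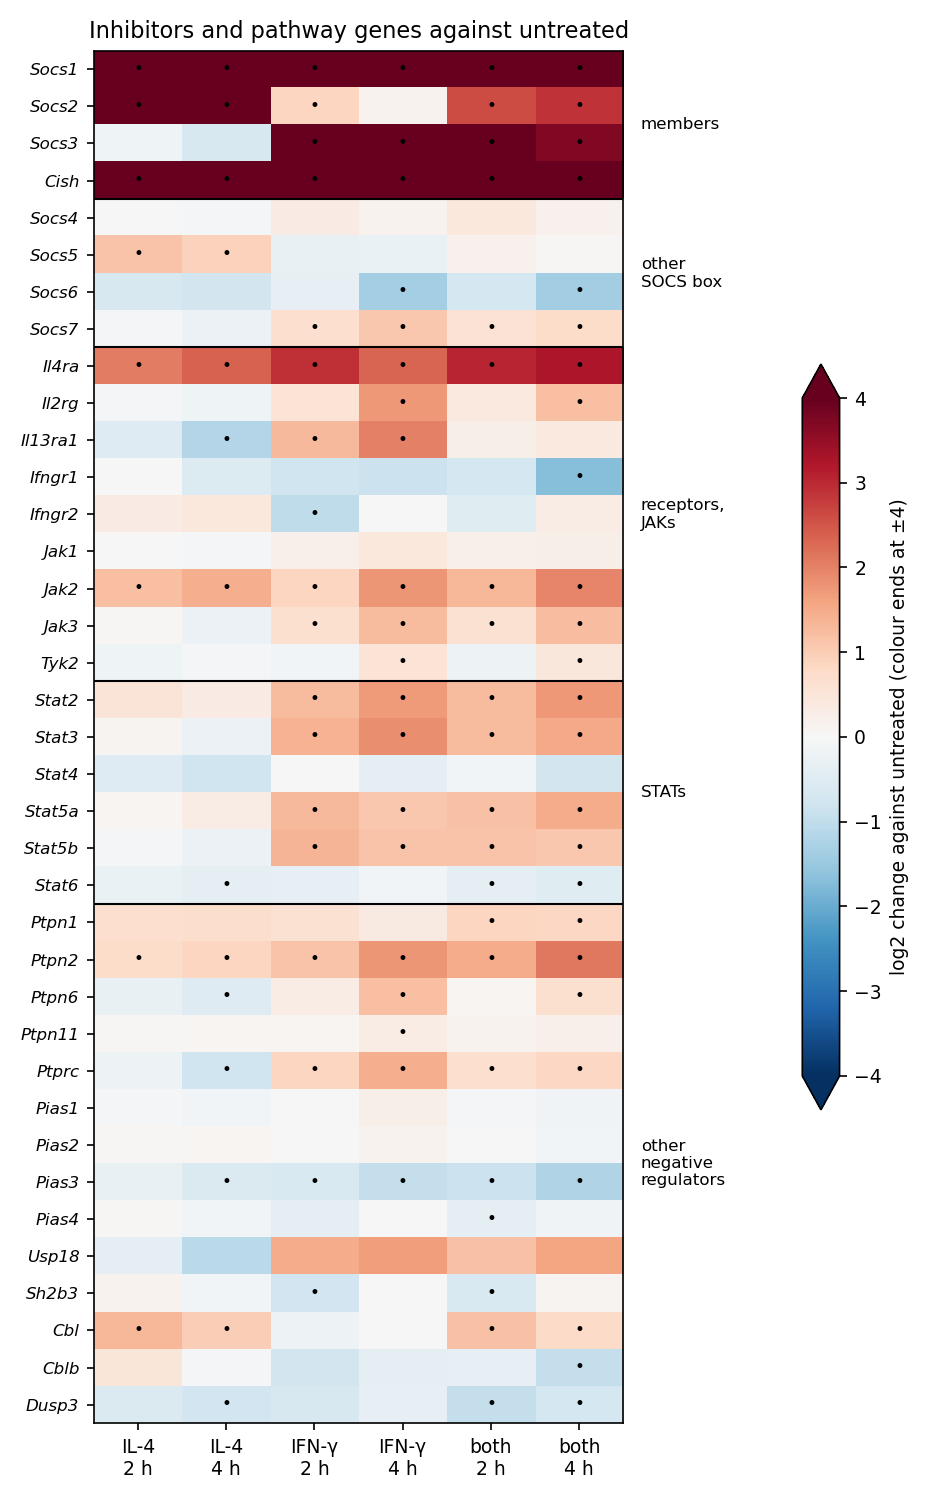
Log2 change against untreated of the 4 members, the other SOCS-box genes, receptors and JAKs, 6 STATs and other negative regulators, by treatment and time, with dots where the adjusted p was under 0.05. Socs1 and Cish are deep in all 6 columns, while Socs2 is pale in IFN-γ and Socs3 in IL-4; several STATs are coloured in the 4 groups with IFN-γ.

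Genes whose pattern over the 21 libraries was most like each member were taken from 3119 genes that varied by at least 1 on the log2 scale between groups. Among the 5 nearest to Socs1 were Ccdc86 (r = 0.94), Rnf19b (0.93), Il4ra (0.93) and Zbtb5 (0.93). Il4ra is also among the receptor genes above, where it was higher at 4 h in IL-4, IFN-γ and both.

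The nearest to Socs2 were Uck2 (r = 0.98), Cobll1 (0.97), E2f5 (0.97), Triap1 (0.96) and Rps6kc1 (0.96). Uck2, a uridine-cytidine kinase, had 55.6 CPM at 4 h of IL-4, 8.67 CPM at 4 h of IFN-γ and 23.5 CPM at 4 h of both, against 6.39 CPM in untreated libraries. The nearest to Socs3 were Zfp945, Tagap and Fbxl5 (each r = 0.99), then Tceanc2 and Gpr18 (each 0.98). Tagap, a GTPase-activating protein of activated lymphocytes, had 6.40 CPM at 4 h of IL-4, 259.6 CPM at 4 h of IFN-γ and 93.8 CPM at 4 h of both, against 8.86 CPM in untreated libraries. At 4 h the mean of Uck2 and of Tagap in both cytokines stood between those of the single cytokines, as did the means of Socs2 and Socs3.

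The nearest to Cish were Nfil3 (r = 0.96), Tiam1 (0.95), Csrp2bp (0.94), Zbtb5 (0.94) and Dse (0.92). Nfil3, a bZIP transcription factor, had 124 CPM at 4 h of IL-4, 43.8 CPM at 4 h of IFN-γ and 150.5 CPM at 4 h of both, against 12.4 CPM in untreated libraries. Zbtb5 was among the 5 nearest genes of both Socs1 and Cish. With r computed over the 7 group means, these 20 values lay between 0.94 and 1.00, on deposited CPM over the 21 libraries they lay between 0.92 and 0.99, and the libraries share treatment, depth and composition within a group, so r is a description without a test.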

How the data were processed

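Poly(A) mRNA of mouse bone marrow-derived macrophages was sequenced in 21 libraries. The deposited table holds CPM (reads scaled to a fixed library total, made by the authors) per gene; per the submitters' processing notes TopHat2 2.1.0, HTSeq and edgeR were used with mm10/GRCm38, and strand use and annotation version are not given in the sources used here. All CPM values (100% within 0.01 read) were whole multiples of 1 read, so reads were recovered from the deposited CPM and used for edgeR 4.0.16 quasi-likelihood and DESeq2 1.42.0 tests as alternatives.

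CPM were divided by median-ratio factors (0.577 to 1.21). Genes were kept if 3 or more libraries had 1 CPM or more, and limma 3.58.1 (trend, R 4.3.3) was fitted to log2(CPM + 1) with 7 group means, in 20 contrasts. The limma step was run on simulated independent libraries that had no replicate-number effect, no ribosomal RNA shift and no rescaling. That run says nothing about these features of the data. Genes named outside the 4 members were the up to 4 called genes with the largest change and up to 2 uncalled genes of highest CPM per list and contrast, 9 pathway genes that could always be named, and the 5 genes most correlated with each member; 2 of these genes are not reported here. The members and lists were chosen with earlier results of these data known.

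Replicate numbers marked samples that deviated together: over 63 pairs of libraries with the same number in different groups, deviations from the group means correlated at 0.54 to 0.95, against -0.86 to 0.37 in 126 pairs with different numbers. The main fit had no block; values with replicate number as a block are given where they change a call. Alternatives were other scalings, pseudocounts and filters, the block, edgeR, DESeq2, leaving out libraries, and other spread estimates; correlations on deposited CPM were added after seeing the data. In untreated libraries 5 to 67 reads lay behind each value of Socs1, Socs2 and Cish.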

Additional observations from a re-analysis of the deposited data

Results flagged for a closer look

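By the interaction term of the log2 fit, the effect of one cytokine differed with the other present for Socs1, Socs2 and Cish. The Cish calls were lost with replicate 1 or 3 left out of all groups, and the Socs2 calls with replicate 3 left out. The sign depends on the scale, as at 4 h Socs1 and Cish were above the sum of CPM increments. On the log2 scale the interaction was -4.89 for Socs1, -2.46 for Socs2 and -3.42 for Cish at 2 h, and -3.73 for Socs1, -2.20 for Socs2 and -2.95 for Cish at 4 h. For Socs1 and Cish the combination had the highest mean of all groups at each time, and for Socs2 it lay between the single cytokines.

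A difference in time course was called for 2 members, and neither call was kept under every alternative. The change of Socs2 between 2 h and 4 h differed between IL-4 and IFN-γ by log2 1.41, and that of Socs1 differed between both cytokines and IL-4 alone by 1.40. The Socs2 call was lost with replicate 3 left out of all groups, and its IFN-γ levels rested on 16 to 90 reads. The Socs1 call was lost on the deposited scale and with any 1 replicate number left out of all groups.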

How the results depend on the processing

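For the 48 member results against untreated, between both and single cytokines and for the interactions, 1088 alternative values were computed; 1031 kept direction and side of the threshold, 37 lost a call, 11 gained one and 9 changed sign, and 32 of the 48 results kept both under every alternative run. Except where a fit held fewer samples, the cause was not tested. With CPM as deposited, Socs3 at 2 h of IL-4 was 0.21 with and without the replicate block; both against IL-4 lost its call for Socs1 at 2 h (0.71) and Cish at 4 h (0.77). Pseudocount 4 ended the calls of Socs2 at 2 h of IFN-γ (0.34) and of the Cish interaction at 4 h (-1.68), and no filter that of Cish in both against IL-4 at 4 h (1.03). The replicate block added calls for Cish in both against IL-4 at 2 h (0.79, and 0.69 on deposited CPM), Socs1 in both against IFN-γ at 2 h (0.63), Socs3 in both against IFN-γ at 4 h (-1.37, and -1.26 on deposited CPM) and, on deposited CPM only, the Socs3 interaction at 4 h (-1.05). Besides these and the blocked values given in the text, the block on the rescaled CPM changed no call of a member. DESeq2 also called Socs3 in both against IFN-γ at 4 h (-1.52). Fitting only the compared groups ended the calls of Socs1 in both against IL-4 at 2 h (0.81) and Cish in both against IFN-γ at 2 h (1.70). With untreated replicate 1 as the only control, assumed to vary like the other groups, Socs2 in IFN-γ was 0.68 at 2 h, uncalled, and -0.025 at 4 h; the Socs3 interaction at 2 h was 0.32, and the Cish interactions were uncalled at -3.31 and -2.84. Leaving out 1 library, or 1 replicate number in all groups, gave ranges of -0.47 to 0.084 for Socs3 at 2 h of IL-4 and 0.70 to 0.93 for Socs2 at 2 h of IFN-γ. Against IL-4 at 2 h the combination ranged from 0.63 to 1.11 for Socs1 and from 0.62 to 1.04 for Cish, and at 4 h from 0.90 to 1.11 for Cish. Against IFN-γ it ranged from 1.60 to 1.93 for Socs2 and from 1.39 to 1.95 for Cish at 2 h, and from -2.03 to -0.96 for Socs3 at 4 h. Interactions ranged from -2.63 to -2.29 for Socs2, -0.44 to 0.11 for Socs3 and -3.72 to -3.17 for Cish at 2 h, and from -2.46 to -1.86 for Socs2 and -3.45 to -2.58 for Cish at 4 h. Among the 32 other results, 697 of 744 values kept direction and side; the 4 h to 2 h change in IFN-γ ranged from -0.030 to 0.98 for Socs3 and from -0.60 to 0.27 for Cish, the course difference of IL-4 against IFN-γ from -0.072 to 0.80 for Cish, and that of both against IL-4 from -0.59 to 0.034 for Socs3 and from -0.0087 to 0.41 for Cish.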
